A study of Mus musculus with 12 samples.

Results

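The cytoplasmic ribosomal protein genes were examined in mouse regulatory T cells (Tregs) kept with or without interleukin 2 (IL-2), or made to carry a tethered form of it. The members were the rows of the expression table whose gene symbol has the form of an Rpl or Rps gene, with or without a paralog ending. This rule took 87 of the 55228 symbols in the table, 54 of the large (Rpl, Rplp) and 33 of the small (Rps, Rpsa) subunit. Of these, 83 are annotated as protein coding, and Rpl32l, Rpl6l, Rps12l1 and Rps4l are annotated as processed pseudogenes.

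Bulk RNA was sequenced from 12 libraries in 4 groups of 3. The cells were CD25+ Foxp3.GFP+ Tregs from lymph nodes of 16 NOD.Foxp3-GFP mice, a nonobese diabetic strain that carries green fluorescent protein as a reporter of Foxp3, pooled and then divided into 3 parts that were sorted on separate machines and activated separately. Each part was divided on day 2 and transduced with an empty vector (EV) or with a CD25t tether construct, which joins a mutant IL-2 (1G12 or 3A10) through a CD25-derived linker to the orthogonal IL-2 receptor beta chain. IL-2 was washed out on day 4 for 5 further days in the EV no IL-2, 1G12t and 3A10t groups, the EV+IL-2 group was left in IL-2, and Thy1.1+ transduced cells of all 4 groups were sorted on day 9. All groups therefore share the strain, the reporter, the activation and a Thy1.1 vector, and the replicates descend from 1 pool of mice. Only 1G12t and 3A10t carry the orthogonal receptor chain, which is expressed from the transduced construct. No group carried that chain without a tethered IL-2, so effects of the receptor and of the ligand cannot be told apart. The labels give neither the age nor the sex of the mice.

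Ribosomal proteins are the protein part of the ribosome: those named Rps build the small subunit, which reads the message, and those named Rpl build the large subunit, which joins the amino acids. One copy of nearly every protein is needed per ribosome, so their genes are usually expressed together, and most of their messages begin with a cytosine followed by a run of pyrimidines, the 5′ terminal oligopyrimidine (TOP) tract, through which mTOR and Larp1 control their translation and stability. T cells build ribosomes when they are activated and grow, and IL-2 is a growth signal for Tregs.

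The start of the message is shown for members to which the results below return. Each window runs from 12 bases before to 18 bases from the RefSeq start (GRCm38.p6), written along the gene's own strand, and capitals mark a cytosine followed by at least 5 pyrimidines, with the cytosine within 10 bases of the annotated start. Rpl15 lies at chr14:18270969-18270998 (minus strand), Rps6 at chr4:86857350-86857379 (minus), Rps12 at chr10:23787192-23787221 (minus), Rps27 at chr3:90213631-90213660 (minus), Rps27l at chr9:66946074-66946103 (plus), Rpl10 at chrX:74270804-74270833 (plus), Rps28 at chr17:33824545-33824574 (minus) and Rpl7l1 at chr17:46782639-46782668 (minus).
Rpl15: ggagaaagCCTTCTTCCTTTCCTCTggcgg
Rps6: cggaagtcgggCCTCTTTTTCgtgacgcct
Rps12: cgtcatgcggccaccgccggCCTTTTCCCC
Rps27: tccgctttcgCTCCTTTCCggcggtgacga
Rps27l: ctCCTCCCCgccgcctctatcccggaagtt
Rpl10: gttacagtggaagataggccgcctatataa
Rps28: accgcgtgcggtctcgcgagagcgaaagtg
Rpl7l1: aggctgcgcaagcgcagtagctgaagcacc
The first 5 windows hold such a tract and the last 3 do not. That of Rps27l lies wholly before the annotated start, and such tracts were counted too. A tract was found for 35 of the 64 members with a RefSeq window (54.7%), against 5910 of all 27025 symbols with one (21.9%) and 16 of 69 mitochondrial ribosomal protein genes (23.2%). Only the gene's own strand was searched, a gene with several annotated starts counted once, and the search depends on where the start is annotated, so a window without a match says only that these letters are not there.

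Levels are given as scaled TPM, a measure of transcript abundance per transcript length, divided by 1 factor per library, and can be set beside each other. Among the highest members were Rps27, with a mean of 3265 scaled TPM over the 12 libraries, Rps19 (2772) and Rpl13 (2029.8). The median member stood at 434 scaled TPM, and Rpl29 at 83.0 was the lowest of the 80 members with a mean of at least 5. Their order was nearly fixed: between any 2 libraries Spearman's rho over these 80 members was 0.984 to 0.996, a correlation across genes that share library and transcript length.

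The other 7 members were close to silent. Rps4l (mean 2.86 scaled TPM), Rpl32l (2.21), Rpl6l (1.89) and Rpl39l (1.20) passed the minimum of 1 TPM for testing. Rpl3l, a muscle paralog of Rpl3, averaged 0.527 and Rpl10l, a testis paralog of Rpl10, 0.102, and Rps12l1 was listed at 0 in all 12 libraries. These 3 were not tested, which left 84 of the 87 members. TPM holds no read depth, so it cannot be said how many reads stand behind these low values.

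As a set, the members took most in EV+IL-2. They held 5.03%, 4.74% and 4.45% of the TPM of the EV no IL-2 libraries (mean 4.74% ± 0.288 SD, n = 3), against 5.46%, 5.55% and 6.15% in EV+IL-2 (5.72% ± 0.380). The 1G12t libraries held 4.59%, 4.72% and 4.65% (4.65% ± 0.0645) and the 3A10t libraries 4.91%, 5.39% and 5.25% (5.18% ± 0.243). Every EV+IL-2 library lay above every library of the other 3 groups, while 3A10t replicate 1 lay inside the range of EV no IL-2. As a share of protein-coding TPM alone EV+IL-2 and 3A10t overlapped. There 3A10t replicate 2 held 6.35%, against 6.22%, 6.34% and 7.10% in EV+IL-2. In these bulk samples a change in the cells present and a change in RNA per cell cannot be told apart, and a share says nothing of total RNA per cell.

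In EV no IL-2 and 3A10t the members shifted together from library to library. Set against the EV no IL-2 mean, the median tested member stood at 0.13, 0.01 and −0.14 (log2) in that group itself, at 0.31, 0.34 and 0.43 in EV+IL-2, at −0.02, −0.05 and −0.08 for 1G12t, and at 0.10, 0.43 and 0.26 in 3A10t. The EV no IL-2 replicates thus differed among themselves, with 84 of the 84 tested members above the group mean in replicate 1 and 1 of 84 in replicate 3. Once each library was centred on its own median member, the median SD between EV no IL-2 replicates fell from 0.14 to 0.04 (log2), and between 3A10t replicates from 0.17 to 0.06. It fell less between EV+IL-2 replicates, from 0.09 to 0.06, and was 0.07 before and after in 1G12t. A shared shift thus made up most of the spread between replicates in EV no IL-2 and 3A10t but not in 1G12t, and it enters every test of single members below.

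**Figure D1:**
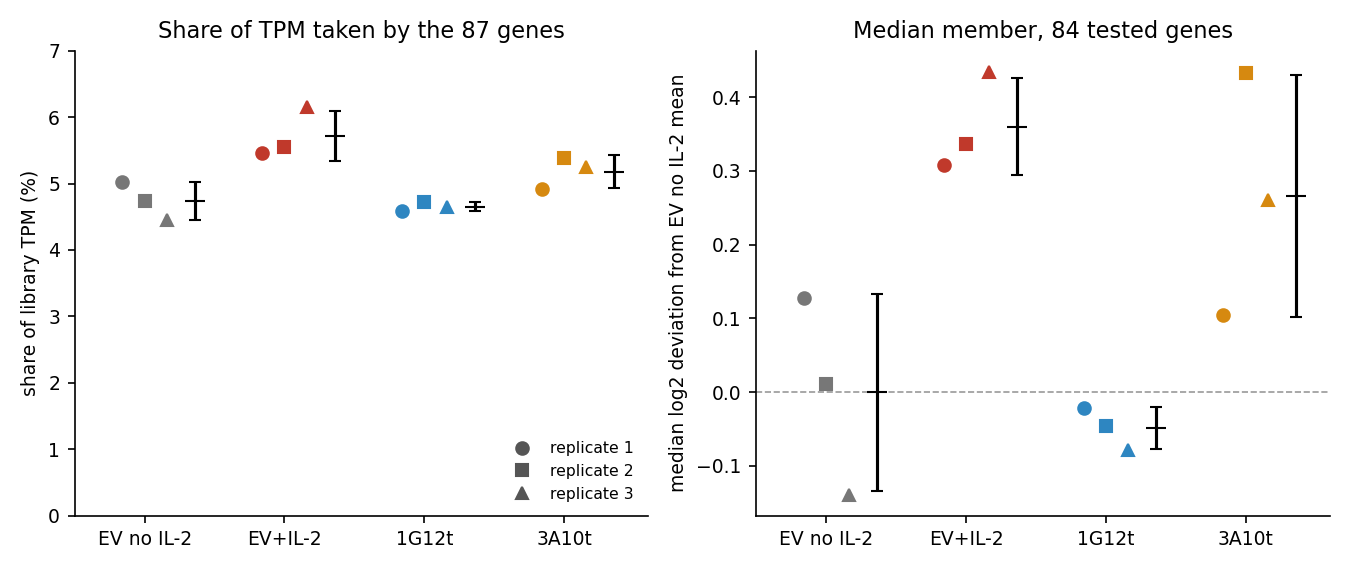
Each point is a library, with the mean and SD of each group of 3 beside it. Left, the share of TPM taken by the 87 members (%); right, the median log2 deviation of the 84 tested members from the EV no IL-2 mean. The 3 EV+IL-2 libraries lie above all EV no IL-2 and 1G12t libraries, and 3A10t replicate 1 (0.10) lies within the range of EV no IL-2.

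The effect of soluble IL-2 was read from EV+IL-2 against EV no IL-2, and most ribosomal protein genes were higher with IL-2. Of the 84 tested members, 47 rose and 0 fell at an adjusted p under 0.05 (limma, adjusted over all 15043 genes tested). Over all genes 8.17% rose and 5.14% fell. The median member was 0.37 higher (log2, 1.29-fold), against −0.01 for the median gene, and in 70 of the 84 every EV+IL-2 library lay above every EV no IL-2 library, as in 19.6% of all genes. By the cut-off that the study used (p below 0.01 before adjustment, log2 fold change beyond 0.25), 52 members were higher and 0 lower, against 8.99% and 6.12% of all genes. The log2 fold change was above 0 in 83 of 84 members and in 45.9% of all genes. The count moved with single libraries while the direction did not: it was 21 and 13 with replicate 2 or 3 of EV no IL-2 left out, 28, 24 and 17 with replicate 1, 2 or 3 of EV+IL-2 left out, and the median stayed between 0.29 and 0.43. Both subunits took part, with 28 of 52 tested large and 19 of 32 tested small subunit genes called (medians 0.36 and 0.37).

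Rpl10, Rpl15 and Rps6 are the members named in the study's own text on these libraries, so they are no independent evidence of a direction. Rpl15, a core large subunit protein, measured 563, 525 and 465 scaled TPM in EV no IL-2 against 739, 737 and 789 in EV+IL-2, with no overlap, and rose by 0.55 ± 0.10 (log2 ± SE, adjusted p = 0.0054). Rpl10, which is added late and is needed for the subunits to join, measured 507, 466 and 428 against 643, 640.1 and 672 and rose by 0.48 ± 0.09 (adjusted p = 0.0056). Rps6, the small subunit protein phosphorylated by S6 kinase, measured 527, 521 and 473 against 680.3, 641 and 699 and rose by 0.41 ± 0.08 (adjusted p = 0.0059). The groups did not overlap in any of the 3 genes, and each passed the threshold under all 19 alternatives run.

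Members were then grouped by role. The acidic stalk of the large subunit, which recruits elongation factors, comprises Rplp0, Rplp1 and Rplp2. Of these Rplp0 rose (0.41 ± 0.09, adjusted p = 0.015), and Rplp1 and Rplp2, at 0.37 and 0.26, did not pass (adjusted p = 0.083 and adjusted p = 0.080). Rpl5 and Rpl11, which with 5S RNA can bind Mdm2, were 0.33 and 0.32 higher and did not pass either (adjusted p = 0.067 and adjusted p = 0.059). Of 17 members mutated in human Diamond-Blackfan anaemia, a failure of red cell production, 10 rose and 0 fell (8.17% and 5.14% of all genes, list median 0.38). Those that rose included Rps26 (0.47 ± 0.10, adjusted p = 0.0097) and Rpl27 (0.45 ± 0.09, adjusted p = 0.0070), while Rps28 stood at 0.16 (adjusted p = 0.45).

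Near the top of the ranking were Rps27l, Rps12, Rps4l, Rpl32l, Rpl15, Rpl3 and Rpl32. Rps12, a small subunit protein, measured 172, 157 and 133 scaled TPM in EV no IL-2 against 224, 224 and 291 in EV+IL-2, and rose by 0.67 ± 0.12 (log2 ± SE, adjusted p = 0.0031). The groups did not overlap, and EV+IL-2 replicate 3 was the highest library. Rpl3, which lies at the peptidyl transferase centre, rose by 0.50 ± 0.10 (adjusted p = 0.0055) and Rpl32 by 0.50 ± 0.12 (adjusted p = 0.018). The pseudogene Rps4l was called too (0.65 ± 0.19, adjusted p = 0.042) but from 2.53, 1.49 and 1.55 against 2.48, 3.58 and 4.46 scaled TPM, where the groups overlap. It passed under 7 of 17 alternatives and was lost with the replicate number as a block (adjusted p = 0.070). Rpl32l, at 0.58, did not pass (adjusted p = 0.19).

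The tested members with the smallest changes were Rps27 (−0.12, adjusted p = 0.51), Rpl7l1 (0.10, adjusted p = 0.61), and the near-silent Rpl6l (0.12, adjusted p = 0.86) and Rpl39l (0.14, adjusted p = 0.85). Rps27, a zinc finger protein of the small subunit and one of the most abundant members, measured 3604, 3483 and 2881 scaled TPM in EV no IL-2 against 2814, 2994 and 3331 in EV+IL-2. The ranges overlap, so that no difference beyond the spread was seen in the most abundant small subunit message, where the median member was 1.29-fold higher. With quantile normalization Rps27 was called lower (−0.33, adjusted p = 0.021).

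Members with and without a tract found by the search above had medians close to each other, whose difference was not tested. The median log2 fold change was 0.39 in the 35 with a tract, of which 18 were called, and 0.36 in the 27 tested without one, of which 16 were called. Over all genes 13.3% were called in either direction. Rps27 and Rps27l, both with a tract in the windows above, lay at the opposite ends of the ranking. The tract of Rps27l lies wholly before the annotated start, so it need not be part of the message.

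**Figure D2:**
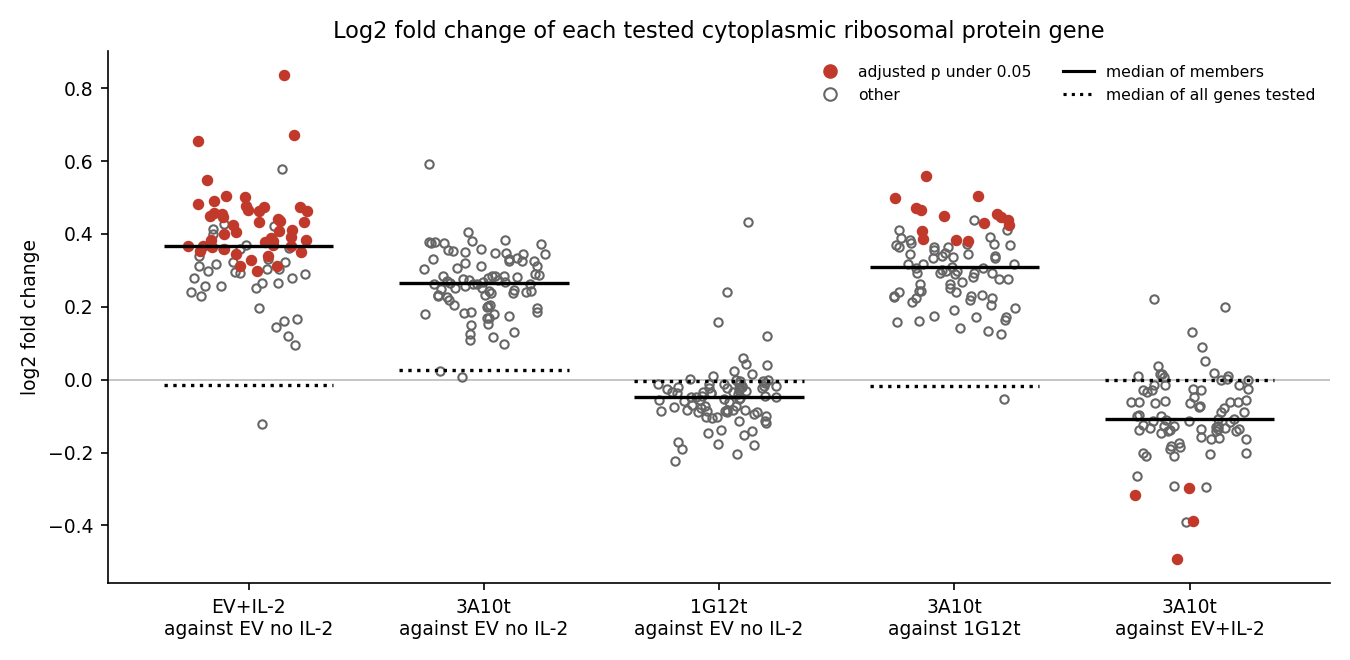
Each point is 1 of the 84 tested members, with the log2 fold change of the comparison named below it on the vertical axis; filled red points have an adjusted p under 0.05 (limma), solid lines are medians of the members and dotted lines medians of all 15043 genes. The filled points number 47 in EV+IL-2 against EV no IL-2, 0 for either tether against EV no IL-2, 15 in 3A10t against 1G12t and 4, all lower, in 3A10t against EV+IL-2.

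The 3A10 tether construct was then set against EV no IL-2, from which it differs in both the tethered IL-2 and the orthogonal receptor chain. All 84 tested members had a log2 fold change above 0, with a median of 0.27 (1.20-fold) against 0.03 over all genes, of which 52.9% were above 0. None passed an adjusted p under 0.05 in either direction (limma), where 0.452% of all genes rose and 1.6% fell (2.05% in all). At an unadjusted p under 0.05, 56 were higher and 0 lower (10.9% of all genes higher), and at the study's threshold 19 were higher and 0 lower (2.83% and 6.67% of all genes). In 35 of the 84 every 3A10t library lay above every EV no IL-2 library, as in 13.3% of all genes. The result turned on 3A10t replicate 1, whose median member stood at 0.10 against 0.43 and 0.26 in replicates 2 and 3: without it 48 members were called higher. With the TPM used as deposited, without scaling, the members' median was 0.12 and that of all genes −0.09, and 1 member was called. With quantile normalization the median was 0.11 against 0.02 over all genes, 75 of 84 members were above 0 and 0 were called, so that the gap to all genes was 0.10 where it was 0.24 in the fit above.

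Members with large differences from EV no IL-2 in 3A10t included Rps4l (0.59, adjusted p = 0.10), Rpl15 (0.41), Rps14 (0.38), Rplp0 (0.38), Rpl13a and Rpsa. Rpl15 measured 599.5, 801 and 667 scaled TPM in the 3A10t libraries, all above the 3 EV no IL-2 libraries (adjusted p = 0.068). Rpl10 measured 541, 679.9 and 597 and Rps6 591, 708 and 623, again without overlap (adjusted p = 0.064 and adjusted p = 0.059). Replicate 1 was the lowest and replicate 2 the highest 3A10t library for each of these 3 genes. The smallest differences were those of Rpl7l1 (0.01), Rps28 (0.02), Rps27 (0.10) and Rpl30 (0.11). The log2 fold change ran with the level of the member in 3A10t against EV no IL-2 (Spearman's rho 0.42 over 80 members, across genes of the same libraries) but not in EV+IL-2 against EV no IL-2 (−0.09).

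The tethers were set against each other in 3A10t against 1G12t, where 15 members rose and 0 fell (1.3% of all genes rose, 2.96% fell, 4.27% in all). The median was 0.31 against −0.02 over all genes, 70 of the 84 had every 3A10t library above every 1G12t library (13.7% of all genes), and 35 were higher and 0 lower at the study's threshold (5.28% and 7.06%). Rplp0, the base of the stalk, measured 877, 876 and 809 scaled TPM in 1G12t and 1037, 1350.0 and 1168 in 3A10t, and rose by 0.46 ± 0.09 (log2 ± SE, adjusted p = 0.033). The groups did not overlap, and 3A10t replicate 2 was the highest library.

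Others called in 3A10t against 1G12t included Rpl14, Rpl13, Rpl15, Rpl23a, Rps18, Rpl4, Rps2, Rpl18, Rps6, Rpl10 and Rpl29, between 0.38 and 0.50 higher, with adjusted p of 0.032 to 0.049 (limma). Some lie beyond the 8 largest and are named because they were called. These calls lay close to the threshold. The count was 0 when any 1 library of the 6 was left out, other than 3A10t replicate 1, without which it was 60. With quantile normalization it was 0, and the median was 0.09 against 0.02 over all genes, a gap of 0.08 where it was 0.33 in the fit above. With the TPM as deposited 9 were called and the median was 0.12 against −0.18 over all genes.

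1G12t against EV no IL-2 gave no call among the members in either direction, while 0.0133% of all genes rose and 0.00665% fell. The median was −0.05, with 11 of 84 members above 0 (48.1% of all genes), and at an unadjusted p under 0.05 there was 1 member higher and 1 lower (limma), against 5.33% and 1.72% of all genes. No member passed the study's threshold (1.13% of all genes were higher by it). In 1 member all 1G12t libraries lay above and in 2 below those of EV no IL-2, as in 8.68% and 7.8% of all genes. The median changed sign after quantile normalization (0.03), and also when replicate 1 of EV no IL-2 was left out (0.02). The largest differences either way were those of Rps4l (0.43) and Rpl7l1 (−0.22), neither past the threshold (adjusted p = 0.70 for both). Rpl15, at 504, 504 and 490.2 scaled TPM, overlapped the EV no IL-2 libraries, as did Rpl10 and Rps6.

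The tether and soluble IL-2 were compared directly, since both had been set against the same EV no IL-2 libraries. The median member was 0.11 lower in 3A10t, and 4 members fell and 0 rose (13.0% of all genes fell, 10.3% rose). They were Rps27l (−0.49 ± 0.12, adjusted p = 0.013), Rps12 (−0.39 ± 0.12, adjusted p = 0.035), Rpl7a (−0.32 ± 0.08, adjusted p = 0.021) and Rpl27 (−0.30 ± 0.09, adjusted p = 0.035). Rps12 measured 188, 186 and 186 scaled TPM in 3A10t, below all 3 EV+IL-2 libraries at 224, 224 and 291. Rpl7a, a large subunit protein, measured 264, 265 and 262 against 344, 311 and 333. With the replicate number as a block 2 were called, and Rps12 and Rpl27 were not (adjusted p = 0.051 and adjusted p = 0.053). The count was 1 without EV+IL-2 replicate 3 or without 3A10t replicate 3. The median moved to −0.02 without 3A10t replicate 1, to −0.19 without 3A10t replicate 2 and to −0.07 without EV+IL-2 replicate 3. With the TPM as deposited 25 fell and the median was −0.19, against −0.07 over all genes, and with quantile normalization 14 fell.

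Differences within the set were tested after each library was centred on its own median tested member, which takes out the shared shift. The SD of the members' differences from that centre was 0.13 (log2) for EV+IL-2 against EV no IL-2. There 3 members stood higher than the centre and 4 lower at an adjusted p under 0.05, while 3.45% of all genes rose and 32.6% fell on that scale, where the centre itself had risen. Above it were Rps27l (0.46 ± 0.08, adjusted p = 0.0021), Rps12 (0.30 ± 0.10, adjusted p = 0.041) and Rpl15 (0.17 ± 0.05, adjusted p = 0.031). Below it were Rps27 (−0.50 ± 0.05, adjusted p = 0.00016), Rpl30 (−0.21 ± 0.07, adjusted p = 0.032), Rpl12 (−0.18 ± 0.06, adjusted p = 0.047) and Rpl18 (−0.15 ± 0.05, adjusted p = 0.045). Rpl30, Rpl12 and Rpl18 are large subunit proteins whose own levels with IL-2 were 0.17, 0.20 and 0.23 higher and not past the threshold. With the replicate number as a block Rps27, Rps27l and Rpl15 were still called and the count of lower members was 1.

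No member passed the test against the centre for either tether set against EV no IL-2 (limma), where 0.146% of all genes rose and 2.07% fell for 3A10t, and 0.0199% rose and 0.00665% fell for 1G12t. At an unadjusted p under 0.05 there were 4 of 84 members for 3A10t, against 30.5% of all genes (1.38% higher, 29.1% lower), and 1 of 84 for 1G12t, against 5.76% (5.21% higher, 0.552% lower). Nothing is read from these counts, which are no more than that threshold lets through. In 3A10t against EV+IL-2, Rps27 (0.34 ± 0.05, adjusted p = 0.0014), Rps14 (0.25 ± 0.07, adjusted p = 0.021) and Rpl18 (0.16 ± 0.05, adjusted p = 0.048) stood above the centre and Rps27l (−0.37 ± 0.08, adjusted p = 0.0082) below it, while 14.6% of all genes rose and 5.24% fell. With the replicate number as a block Rps27, Rps14 and Rps27l were still called there, and Rpl18 was not.

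**Figure D3:**
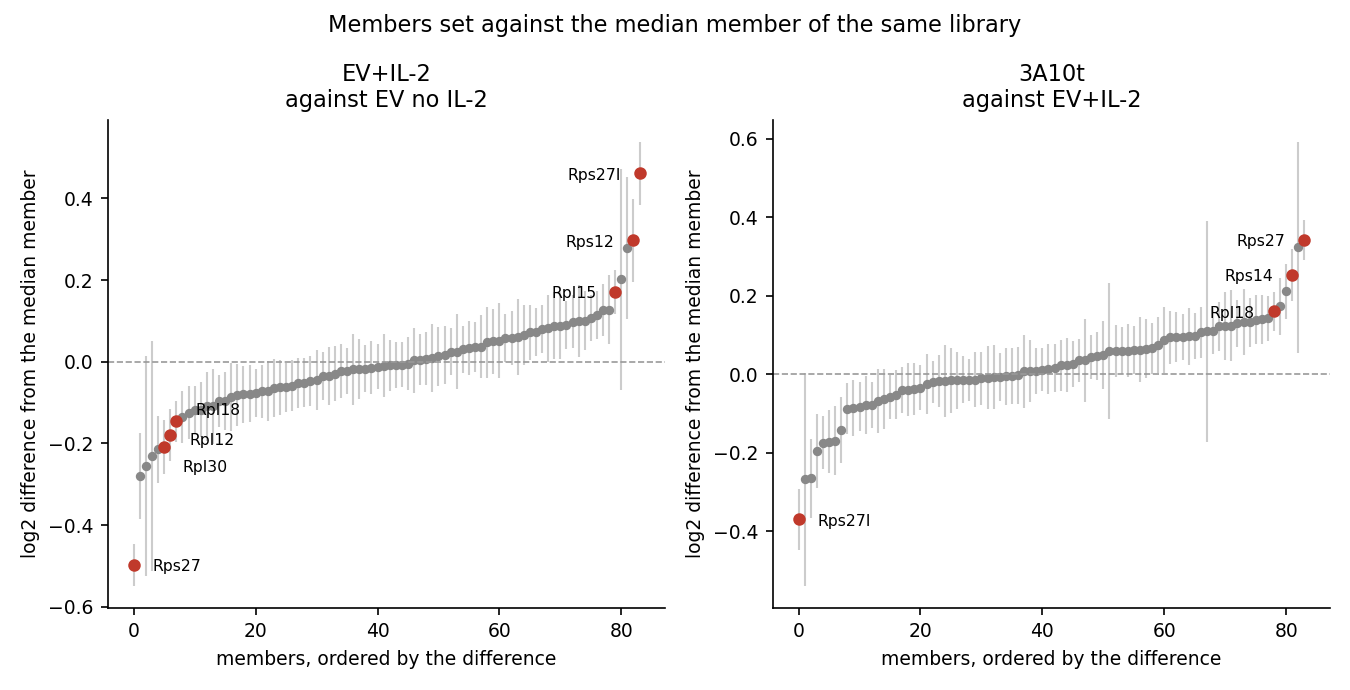
The 84 tested members are ordered by their log2 difference from the median member in EV+IL-2 against EV no IL-2 (left) and in 3A10t against EV+IL-2 (right), with bars of 1 SE; red points with names have an adjusted p under 0.05 (limma). Rps27 (−0.50) and Rps27l (0.46) are the ends of the left panel and stand at 0.34 and −0.37 in the right one.

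The pair Rps27 and Rps27l carried the largest departure from the common movement. Rps27l is a paralog of Rps27 known as a p53-induced gene, and both proteins can be built into the small subunit. Rps27l, at chr9:66946086-66949516 (GRCm38, plus strand), measured 382, 350.0 and 288 scaled TPM in EV no IL-2 against 571, 618 and 623 in EV+IL-2. The tethered groups gave 347, 371 and 384 (1G12t) and 390.5, 499 and 405 (3A10t). All EV+IL-2 libraries were above every other library, and all 3A10t libraries were above EV no IL-2. It was the member with the largest rise in EV+IL-2 against EV no IL-2 (0.84 ± 0.12, 1.79-fold, adjusted p = 0.00082), called under all 19 alternatives run, and stood 0.34 ± 0.12 higher in 3A10t without passing (adjusted p = 0.11). Rps27, at chr3:90212522-90213651 (minus strand), measured 3050.1, 3185 and 3185 scaled TPM in 1G12t and 3279, 3905 and 3465 in 3A10t.

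As a share of the TPM of both genes, Rps27l took 9.57%, 9.13% and 9.10% in EV no IL-2 against 16.9%, 17.1% and 15.8% in EV+IL-2. The 1G12t libraries gave 10.2%, 10.4% and 10.8%, and the 3A10t libraries 10.6%, 11.3% and 10.5%. The share thus separated EV+IL-2 from all 9 other libraries, with means of 9.27%, 16.6%, 10.5% and 10.8% in the order above, and EV no IL-2 lay below the libraries of both tethers. The log2 ratio of Rps27l to Rps27 was 0.96 higher in EV+IL-2 than in EV no IL-2 and differed by −0.71 between 3A10t and EV+IL-2, each with a two-sided exact permutation p of 0.1, the smallest that 3 against 3 allows (adjusted p = 0.21 over 40 ratios tested), so no ratio could pass the threshold. It was 0.25 higher in 3A10t and 0.20 higher in 1G12t than in EV no IL-2, at the same p. The difference of 0.96 kept within 0.93 and 1.00 when any 1 library was left out.

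The coding sequences of the pair, each of 255 bases, are printed from the GENCODE M21 transcripts (GRCm38) because they bear on whether short reads could tell the genes apart. Capitals mark the 61 bases at which they differ (76.1% identity). The coding parts, without the stop codon, lie in 4 exons each, at chr3:90212728-90213615 for Rps27 (minus strand) and at chr9:66946175-66949354 for Rps27l (plus strand).
Rps27: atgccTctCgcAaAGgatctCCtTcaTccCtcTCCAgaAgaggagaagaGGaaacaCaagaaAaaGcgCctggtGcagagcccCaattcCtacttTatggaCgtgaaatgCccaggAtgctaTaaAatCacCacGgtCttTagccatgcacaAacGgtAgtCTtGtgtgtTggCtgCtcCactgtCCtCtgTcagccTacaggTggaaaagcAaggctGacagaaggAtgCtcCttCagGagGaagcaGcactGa
Rps27l: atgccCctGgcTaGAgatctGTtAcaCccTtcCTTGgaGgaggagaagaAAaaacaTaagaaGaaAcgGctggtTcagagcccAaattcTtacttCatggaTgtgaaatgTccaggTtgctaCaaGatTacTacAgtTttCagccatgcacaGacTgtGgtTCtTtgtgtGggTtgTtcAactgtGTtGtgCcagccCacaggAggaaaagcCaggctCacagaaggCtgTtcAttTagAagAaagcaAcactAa
No run of 50 bases, the read length, was shared between the annotated transcripts of Rps27 and Rps27l. Rps27rt, a single-exon copy at chr9:114982366-114982739 (minus strand), has a coding sequence identical to that of Rps27, and 296 of its 50-base words also occur in Rps27, so reads of Rps27 and Rps27rt cannot be told apart over most of it. Rps27rt, which the symbol rule does not take, measured 207 to 257 scaled TPM in EV no IL-2 against 193 to 236 in EV+IL-2. With Rps27 and Rps27rt summed, a choice made after the data were seen, the log2 ratio of Rps27l was again 0.96 higher in EV+IL-2 than in EV no IL-2.

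In the other expressed pairs the shares moved by a few percentage points. Rpl22l1, a paralog of the RNA-binding protein Rpl22, took 53.6%, 51.9% and 54.0% of its pair in EV no IL-2 against 50.3%, 48.9% and 49.9% in EV+IL-2, without overlap. Rpl22 itself rose with IL-2 (0.46 ± 0.11, adjusted p = 0.015) and Rpl22l1 stood at 0.27 (adjusted p = 0.14), and the log2 ratio was −0.20 (exact permutation p = 0.1). Rpl22l1 held 53.1% in 3A10t and 52.0% in 1G12t, overlapping EV no IL-2.

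Rpl7l1, a paralog of Rpl7 known from precursors of the large subunit, took 21.7%, 22.2% and 22.2% of its pair with Rpl7 in EV no IL-2. Its mean share was 19.6% with IL-2, 20.0% in 1G12t and 19.3% in 3A10t, so that all 9 other libraries lay below the EV no IL-2 libraries, which the 3 comparisons share. The log2 ratios were −0.22, −0.18 and −0.24 in that order (exact permutation p = 0.1 each). Rpl36al held 61.0% of its pair with Rpl36a without and 61.1% with IL-2, 62.2% under the 1G12 and 62.4% under the 3A10 tether, and its ratio moved by 0.01 with IL-2 (exact permutation p = 0.5). In the remaining pairs (Rpl3l with Rpl3, Rpl10l with Rpl10, Rpl39l with Rpl39, and Rps4l with Rps4x) the paralog was too low for a share to be read.

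**Figure D4:**
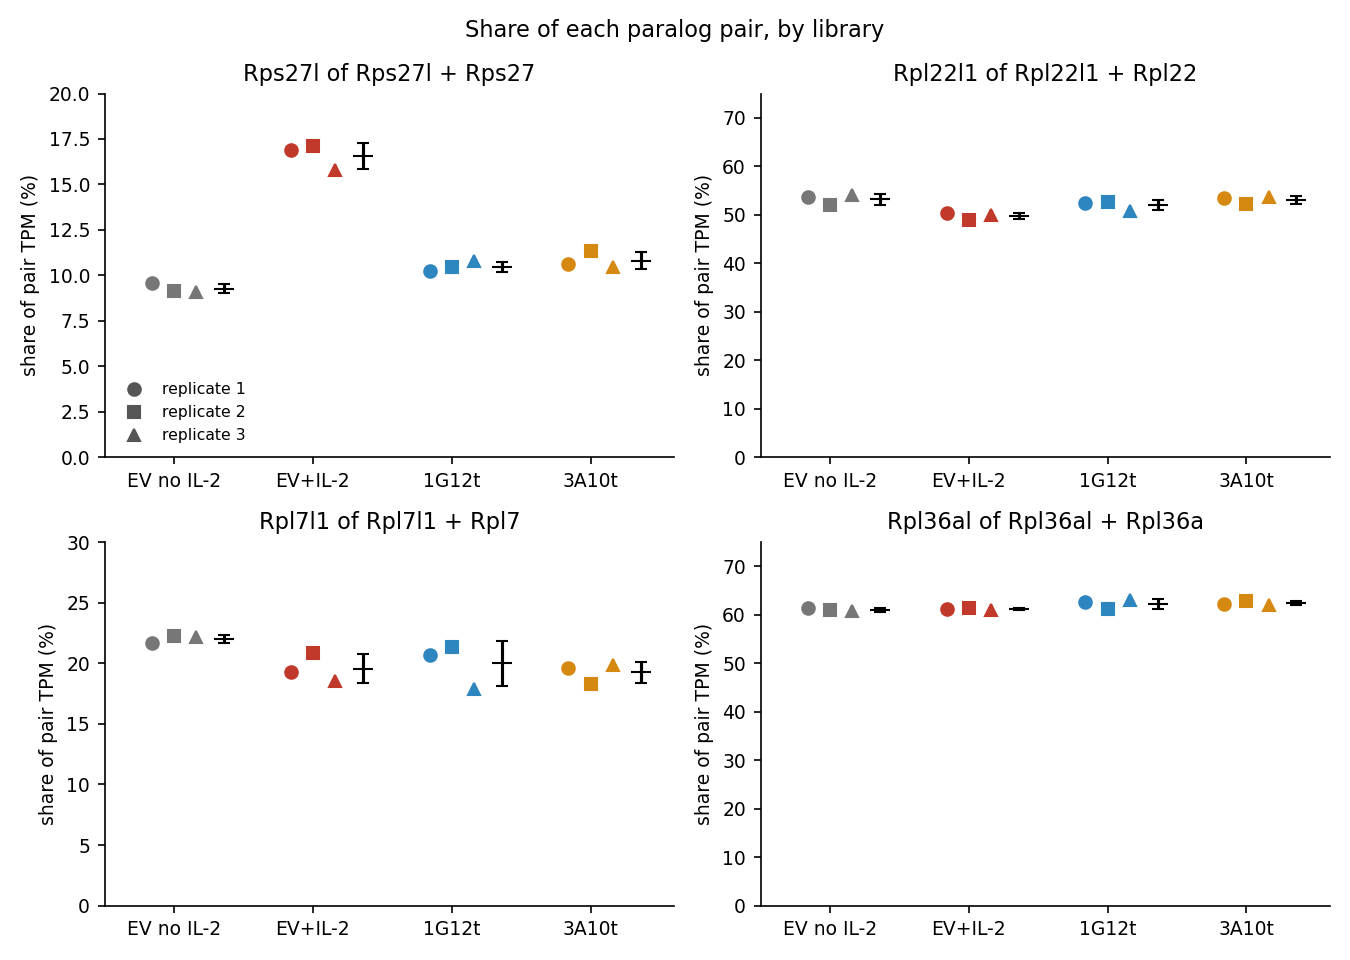
Share of the pair's TPM (%) taken by the named paralog in each library, with the mean and SD of each group of 3. Rps27l lies at 15.8% to 17.1% in EV+IL-2 and at 9.10% to 11.3% in the other 9 libraries, and the other 3 pairs move by a few percentage points.

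Sequence shared with other genes limits single members more than paralog pairs do, since many ribosomal protein genes have processed copies. Over the members a median of 23.5% of the 50-base words of a gene's transcripts also occurred in transcripts of another gene, and the share was over 50% in 8 members (Rpl19, Rpl23a, Rpl24, Rpl35, Rpl36, Rpl6l, Rplp1 and Rps12l1), named after their values were seen. For these 8 the counting could divide reads between copies. Of the 1184 words of Rps27, 296 were shared, and of the 904 of Rps27l 101, and no word was shared within any of the 8 pairs. Of 309 ribosomal protein pseudogenes named with -ps in the table, 94 were tested. In EV+IL-2 against EV no IL-2, 14 of these rose and 1 fell (14.9% and 1.06%, against 8.17% and 5.14% of all genes). The pseudogenes' median was 0.33, beside the members' 0.37. In 3A10t against EV no IL-2 these medians were 0.32 and 0.27, and in 3A10t against 1G12t 0.32 and 0.31. The difference between these lists was not tested.

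Ribosomal protein genes that the symbol rule passes over were described beside the set. Rack1, a scaffold on the small subunit, rose in EV+IL-2 against EV no IL-2 by 0.44 ± 0.11 (adjusted p = 0.021) and Rps3a1 by 0.33 ± 0.08 (adjusted p = 0.020). Fau, at 0.20 (adjusted p = 0.25), and Rps27rt, at −0.13 (adjusted p = 0.50), did not pass.

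Of 18 translation factors and other messages known for a TOP tract, 9 rose and 0 fell with IL-2 (8.17% and 5.14% of all genes, list median 0.36). They included the elongation factors Eef2 (0.51 ± 0.13, adjusted p = 0.028) and Eef1a1 (0.45 ± 0.10, adjusted p = 0.014) and the histone chaperone Nap1l1 (0.45 ± 0.08, adjusted p = 0.0049). These 3 passed under 12, 16 and 19 of the 19 alternatives run, in that order. For 3A10t against EV no IL-2 the median of this list was 0.18 with 0 called (limma). At an unadjusted p under 0.05, 8 of the 18 were higher and 2 lower, against 10.9% and 15.1% of all genes, and the 2 were Eif2s3x (−0.75, adjusted p = 0.096) and Eif4b (−0.41, adjusted p = 0.18). In 3A10t against EV+IL-2 Nap1l1, Hnrnpa1, Eif4b and Eif2s3x fell (22.2% of the list, against 13.0% of all genes). They passed under 19, 16, 12 and 15 of the 19 alternatives in that order. Eif4b measured 64.1, 35.3 and 39.8 scaled TPM in 3A10t, overlapping the 73.3, 63.7 and 68.2 of EV+IL-2. Eif2s3x measured 38.0, 16.6 and 19.4 against 48.9, 42.5 and 42.2, so both were lowest in 3A10t replicates 2 and 3. Of 10 initiation factors and regulators of TOP messages 1 rose with IL-2 (10.0%, against 8.17% of all genes). Nothing is read from this count, which is near that share. The gene called was Larp1, which binds TOP tracts, at 15.8, 14.4 and 15.3 scaled TPM against 22.5, 18.8 and 21.9 (0.45 ± 0.11, adjusted p = 0.025). This call passed under 12 of the 19 alternatives. Between 3A10t and EV+IL-2 Larp1 differed by −0.63 ± 0.11 (adjusted p = 0.0032), where the ribosomal protein median was −0.11.

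The mitochondrial ribosomal protein genes, which serve a separate ribosome, were described beside the set. Of 78, 5 rose with IL-2 (6.41%, against 8.17% of all genes) with a median of 0.12, where the cytoplasmic members had 47 of 84 and a median of 0.37. For 3A10t against EV no IL-2 the medians were 0.24 and 0.27, and in 3A10t against 1G12t 0.30 and 0.31. In 3A10t against EV+IL-2 they were 0.07 and −0.11, with 3 mitochondrial genes higher and 1 lower (3.85% and 1.28%, against 10.3% and 13.0% of all genes). These medians are descriptions, and the difference between the lists was not tested.

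Other properties of the libraries are given beside these results. The members are short, with a median transcript length of 634.5 bases against 1044 over the tested genes, and across all genes the log2 fold change ran against length in 3A10t against EV no IL-2 (Spearman's rho −0.25) but little in EV+IL-2 (−0.03). With a correction for length the members' medians were 0.34 in EV+IL-2 and 0.19 in 3A10t, and 59 and 0 members were called. The scaling factors ran from 0.846 in 3A10t replicate 2 to 1.08. The marker sums that follow are of TPM as deposited, before scaling. The 6 Treg markers (Foxp3, Il2ra, Ctla4, Ikzf2, Cd4 and Cd3e) were present in every library and summed to 1363 to 2262 TPM, with 1872 to 2078 for EV no IL-2, 2174 to 2262 for EV+IL-2, 2004 to 2139 for 1G12t and 1363 to 1934 for 3A10t. In 3A10t against EV+IL-2, 2 of the 6 were lower and 0 higher (13.0% and 10.3% of all genes). Foxp3 was among them (−0.31, limma adjusted p = 0.019). Globin messages (4 genes) summed to 24.7 to 38.2 TPM in EV+IL-2, to 1.56 to 1.93 in EV no IL-2 and to at most 3.01 elsewhere, and the 2 that could be tested both rose with IL-2. B cell markers (Cd79a, Cd79b, Ms4a1 and Cd74) summed to 14.7 to 29.4 TPM in all. Their sums were 20.1 to 23.2 in 3A10t, above the 15.9 to 19.2 of EV no IL-2 and the 14.7 to 17.1 of EV+IL-2, and 14.9 to 29.4 in 1G12t. Cd74 was higher in 3A10t against EV+IL-2 (0.95, adjusted p = 0.041), and Cd79a (0.48) and Cd79b (0.06) did not pass (adjusted p = 0.067 and adjusted p = 0.85). Cd8a with Cd8b1 summed to 3.71 to 5.72 TPM, in ranges that overlapped between all groups. The 5 myeloid markers summed to 482 to 653 TPM, nearly all of it Cst3, with Lyz2, Csf1r, S100a8 and S100a9 near 0. The part of length, of the Treg and B cell marker levels and of the globin messages in the members' changes was not tested.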

How the data were processed

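Per the labels and the study's methods, RNA was amplified as full-length cDNA with oligo-dT priming (15 cycles), tagmented and sequenced as paired 50-base reads. The authors trimmed reads with Cutadapt 1.18, aligned them to mm10 with STAR 2.5.3 and counted genes with RSEM 1.3.0 on a GENCODE annotation, and the deposited table holds TPM, normalised to transcript length and to a fixed library total. Their DESeq2 1.26 results were not used here. Read depth is unknown and no counting interval can be given.

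From these TPM, 1 median-of-ratios factor per library was divided out, 15043 genes averaging 1 TPM or more were kept, and log2(value + 1), which understates changes of low genes, was fitted with limma 3.58.1 (R 4.3.3) on 4 group means with a mean-variance trend, adjusting p by Benjamini-Hochberg. The study's threshold (p under 0.01, log2 fold change over 0.25) is given beside it. Paralog ratios were compared with two-sided exact permutation tests. Only the limma fit was tried on simulated data. The simulated noise was independent between genes, so it held no shift shared by the members and does not bear on such a shift.

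Replicate numbers mark a shared sort and activation, so they pair samples by design. Over the 18 same-numbered pairs the correlation of deviations over all tested genes averaged 0.0408 (−0.105 to 0.154), against −0.0204 for different numbers. Over the members alone the same-numbered pairs averaged 0.0588, with a wider range (−0.297 to 0.550). The main fit left this pairing out, and the fit with it as a block is given as an alternative. All replicates come from 1 pool of mice, so p-values measure the spread between parts of it. Gene symbols were matched to GENCODE M21, which found 53569 of 55228 symbols and all 87 members. Start sequences are RefSeq's.

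Genes named are those of the lists, the 8 largest positive and 4 largest negative members of each comparison, the 6 highest and lowest members, those called against the centre and those under 1 TPM, of which the text gives the ones that bear on a result. The members and lists were chosen with earlier results of these data known. Alternatives covered the pseudocount, filter, scaling, length, weights, trend, gene type, replicate block and leaving out each library. Some genes are not reported here by name.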

Additional observations from a re-analysis of the deposited data

Results flagged for a closer look

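Effects that differed between groups set against the same EV no IL-2 libraries were flagged by the direct limma test between those groups. Among the members so found in 3A10t against 1G12t, the log2 differences were 0.50 for Rpl14, 0.47 for Rpl13, 0.46 for Rplp0, 0.45 for Rpl15, 0.45 for Rpl23a and 0.44 for Rps18. Further ones were 0.43 for Rpl4, 0.42 for Rps2, 0.41 for Rpl18, 0.39 for Rps6, 0.38 for Rpl10 and 0.38 for Rpl29. There 17.9% of tested members were called higher, against 1.3% of all genes. The count fell to 0 with quantile normalization and with most single libraries left out. In 3A10t against EV+IL-2 the test took Rps27l (−0.49), Rps12 (−0.39), Rpl7a (−0.32) and Rpl27 (−0.30), all lower in 3A10t. These are 4.76% of the tested members, a smaller share than the 13.0% of all genes that were lower there.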

How the results depend on the processing

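In EV+IL-2 against EV no IL-2 the 47 members called higher became 24 with no filter on low TPM, 71 with gene-wise library weights and 13 to 44 with a library left out, and quantile normalization added 1 lower. In 3A10t against EV no IL-2 the 0 called became 1 with the TPM as deposited, 34 with gene-wise weights, 7 with protein-coding genes only and 0 to 48 with a library left out. In 3A10t against 1G12t the 15 became 0 in 4 settings (no filter, quantile normalization, a fit of the 6 libraries alone, no trend), 25 at a mean TPM of at least 5, 9 as deposited, 44 with gene-wise weights, 6 with length correction, 8 with that and the block, 28 with protein-coding genes only and 0 to 60 with a library left out. In 3A10t against EV+IL-2 the 4 lower became 25 as deposited, 14 with quantile normalization, 2 with 6 libraries, 7 with weights, 11 with length correction, 8 with that and the block, and 1 to 5 with a library left out. The cause was not tested.

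With the replicate number as a block, 2 members were lower in 3A10t against EV+IL-2 and 1 lower than the centre in EV+IL-2 against EV no IL-2. The block also took away the calls of Rps4l with IL-2 and of Rpl18 and Rpl10 in 3A10t against 1G12t, and left 35 and 13 members higher in EV+IL-2 against EV no IL-2 and in 3A10t against 1G12t. In 3A10t against 1G12t the main fit had 1 member above the centre and 0 below it, while 0.179% of all genes rose and 12.8% fell on that scale. With length correction 0 members stood above it. Quantile normalization turned the median of 1G12t against EV no IL-2 to 0.029 and Rps28 with IL-2 to −0.032, and with a library left out that median ran from −0.12 to 0.016. With protein-coding genes only, the members' share averaged 5.49% (EV no IL-2), 6.55% (EV+IL-2), 6.08% (3A10t) and 5.44% (1G12t).

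With a library left out, log2 ratios near 0 changed sign: Rpl22l1 to Rpl22 in 3A10t against EV no IL-2 (−0.040 to 0.023), Rpl36al to Rpl36a in 3A10t against 1G12t (−0.023 to 0.032), and Rpl7l1 to Rpl7 in 3A10t against 1G12t (−0.16 to 0.000353) and against EV+IL-2 (−0.072 to 0.033). TPM holds no depth, so the limits that counts set on low members are unknown.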
